A study of Homo sapiens with 12 samples.

Results

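Induction of a short hairpin RNA against TCEAL1 was examined in SHEP cells, an established human neuroblastoma line, while the MYCN-ER fusion that the cells also carry was left without its ligand. The comparison rests on 6 of the 12 poly(A) RNA-seq libraries of the series, chosen by their labels: 3 without compounds (Ctrl) and 3 with doxycycline alone (Dox, 1 µg/ml). Both groups carried MYCN-ER and the doxycycline-inducible hairpin, so the difference between them is the addition of Dox. The remaining 6 libraries received 4-hydroxytamoxifen (OHT, 200 nM), which activates MYCN-ER, without (OHT) or with Dox (OHT_Dox). They are used here only to set the same contrast beside a second background. The labels give neither the times of treatment nor the sequence or vector of the hairpin. They describe no cells without the hairpin that received Dox, so effects of the hairpin, of lower TCEAL1 and of Dox itself cannot be told apart.

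TCEAL1 belongs to the transcription elongation factor A-like family, small proteins related to the elongation factor TFIIS and encoded together with the BEX genes on the X chromosome. TFIIS rescues RNA polymerase II that has moved backwards on its template. The series title places TCEAL1 in a complex with the ubiquitin-specific proteases USP11 and USP7 that acts on paused polymerase. MYCN, the MYC-family oncogene amplified in aggressive neuroblastoma, enters here as a fusion to the ligand-binding domain of the oestrogen receptor, which keeps it inactive until OHT binds. SHEP cells are known as a line of the mesenchymal type, rich in matrix, adhesion and contractile gene products, in contrast to adrenergic lines.

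Between 50024114 reads (Dox replicate 3) and 57694970 reads (Ctrl replicate 3) per library were assigned to the 28576 genes of the deposited table. Of these genes 18107 had at least 0.5 CPM (reads of a gene per 1e+06 assigned reads) in at least 3 of the 6 libraries and were tested. The cells' label was set against marker genes. The mesenchymal list had 17 of 18 members tested and a summed level of 6153 to 6461 CPM in Ctrl and 5392 to 5550 CPM in Dox. Of 15 adrenergic markers, 6 were tested, led by HAND2 (50.5 ± 2.91 CPM in Ctrl, SD, n = 3). Markers of haematopoietic cells (sum of 0.691 to 1.28 CPM over the 6 libraries) and of endothelial cells (sum of 0.181 to 0.691 CPM) had no member tested. The epithelial list was represented by the keratin pair KRT8 and KRT18, with EPCAM at 0.575 ± 0.0931 CPM and CDH1 at 0.456 ± 0.405 CPM in Ctrl. The labels number the replicates but do not say whether they were separate cultures, so each p-value reflects only how far these 6 libraries spread, which may be technical. In bulk RNA a lower level in each cell and fewer cells of a type cannot be told apart.

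TCEAL1 (ENSG00000172465) stood at 9.71, 9.11 and 10.7 CPM in the Ctrl libraries and at 2.62, 2.54 and 2.74 CPM in the Dox libraries. The groups did not overlap, and the level with Dox was 29.4% of that in Ctrl on the scale of the test, log2(rescaled CPM + 0.5). The change was -1.77 ± 0.12 (SE, adjusted p = 3.86e-08, limma). The partners named in the title did not pass the test. USP11 had 122 to 126 CPM in Ctrl and 113.5 to 124 CPM with Dox (-0.13 ± 0.06, adjusted p = 0.185). USP7 had 143 to 165 CPM in Ctrl and 162 to 174 CPM with Dox (0.05 ± 0.07, adjusted p = 0.683). TCEA1, which encodes TFIIS itself, was at 165 ± 7.17 and 168 ± 5.33 CPM (-0.02 ± 0.06, adjusted p = 0.872). MYCN, whose reads can come from the fusion or the endogenous gene, was at 496 ± 69.4 and 538 ± 25.4 CPM (0.08 ± 0.08, adjusted p = 0.598). MYC, its paralogue, stood at 30.1, 29.9 and 29.9 CPM in Ctrl and at 24.2, 21.2 and 20.5 CPM with Dox. It was lower in every Dox library and fell by 0.49 on the log2 scale (SE 0.08, adjusted p = 0.00214).

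With Dox 493 genes rose (2.72% of the genes tested) and 721 fell (3.98%) at an adjusted p below 0.05, 6.7% in both directions together. Most changes were small. Over 1.5-fold, 28 genes rose and 105 fell, and over 2-fold 5 rose and 13 fell. The median change of all genes tested was 0.004. All Dox libraries lay above all Ctrl libraries in 12.8% of genes and below them in 14.5%. The 15 largest rises, the 15 largest falls and the 5 noncoding or pseudogene changes were picked by a rule that required groups without overlap. For them the lack of overlap is therefore no further support. For other genes described below as not overlapping these shares are the background. The balance of rises and falls depended on the rescaling of libraries: with the CPM as deposited 940 genes rose and 420 fell. It also turned without Ctrl replicate 1, when 1781 rose and 1438 fell. The number of calls also rested on single libraries. Without Ctrl replicate 1 there were 3219 calls, without Ctrl replicate 2 390, without Ctrl replicate 3 181, without Dox replicate 2 209 and without Dox replicate 3 474, against 1214 with all 6. The genes named below by size of change were less dependent on any library, and those that lost their call are named with the value.

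**Figure D1:**
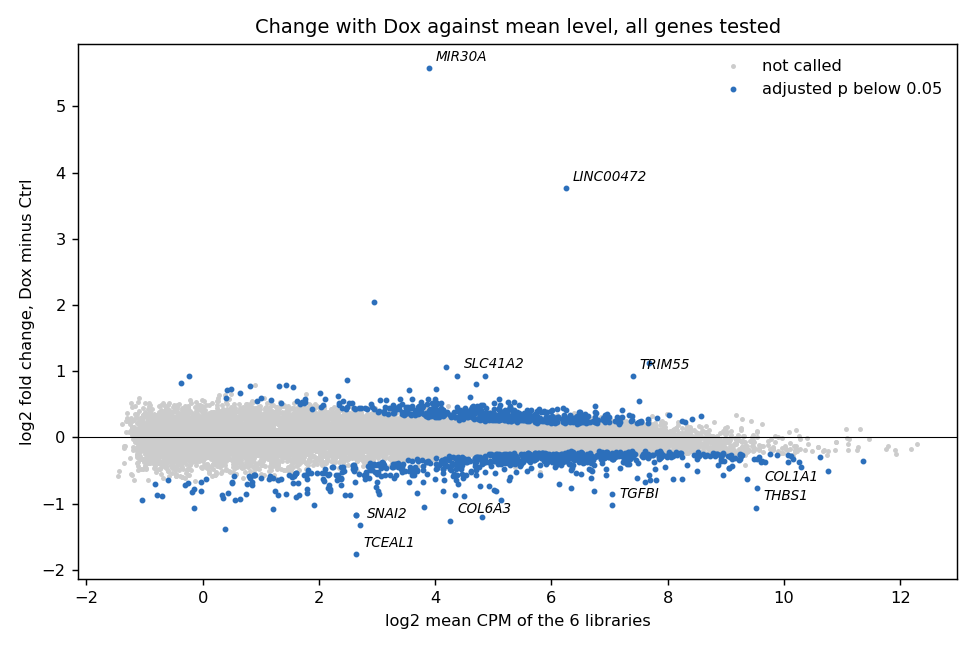
Change with Dox (log2 fold change, vertical axis) against the mean level of the 6 libraries (log2 CPM, horizontal axis) for the 18107 genes tested. Blue points have an adjusted p below 0.05, grey points do not, and MIR30A (5.57) and LINC00472 (3.77) lie apart above all other genes.

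The largest rise lay at 1 place in the genome, the interval of the microRNA gene MIR30A on chromosome 6. MicroRNAs are cut from folded stems within longer transcripts by Drosha and Dicer, and the mature strand pairs with messages through its seed. Mature microRNAs have no poly(A) tail, so poly(A) RNA-seq reads assigned here come from longer transcripts. The RefSeq stem (GRCh38.p14, chr6:71403551-71403621, minus strand) is shown with its mature arms in capitals, followed by both arms with the seed, bases 2 to 8, in capitals, because the reads counted for MIR30A are those assigned to this 71-base interval.
MIR30A: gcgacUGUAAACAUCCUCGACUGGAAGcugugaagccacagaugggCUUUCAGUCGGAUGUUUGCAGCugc
hsa-miR-30a-5p: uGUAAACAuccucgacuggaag
hsa-miR-30a-3p: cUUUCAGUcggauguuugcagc

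MIR30A (ENSG00000207827) received 4, 9 and 7 reads in the Ctrl libraries and 1709, 1662 and 1384 reads in the Dox libraries, a change of 5.57. It passed the filter on low values through the Dox libraries alone, so the change is given without a test. With so few Ctrl reads the 0.5 CPM added before the logarithm sets the size: it was 7.07 with 0.1 CPM added and 3.87 with 2 CPM. LINC00472, a long noncoding RNA gene that overlaps MIR30A on the same strand, had 588, 505 and 534 reads in Ctrl and 7906, 7842 and 7046 with Dox. No Ctrl library came near a Dox library for either gene. The third gene there, the long noncoding ENSG00000269966 that spans both, had 7262, 7220 and 6768 reads in Ctrl and 16119, 15622 and 13884 with Dox (1.12 ± 0.06). Neighbouring MIR30C2, a microRNA gene within the same long transcripts, had between 0 and 6 reads in each of the 6 libraries and was not tested. OGFRL1, on the opposite strand of ENSG00000269966, changed by 0.23 ± 0.07 (adjusted p = 0.0425). The genes overlap and the strand setting of the counting is not given in the sources used here, so their reads cannot be assigned with certainty. Whether reads from the hairpin construct were counted at MIR30A was not tested. The same interval rose in the OHT background, with 5, 8 and 4 reads in OHT and 1618, 1620 and 1207 in OHT_Dox. Genes that process or load small RNAs did not pass the test. Of 13 RNA interference genes 0 rose and 0 fell (2.72% and 3.98% over all genes). Their median was 0.11, and 4 rose without Ctrl replicate 1.

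Beside TCEAL1, the largest falls among protein-coding genes that reached 5 CPM in Ctrl were those of SNAI2, COL6A3, LSM6, THBS1, DIRAS3, PADI1 and TGFBI, each by over 1 on the log2 scale. SNAI2 (ENSG00000019549) encodes Slug, a zinc-finger repressor of epithelial genes that marks mesenchymal and neural crest cells. Its 3 Ctrl libraries had 8.91, 10.1 and 9.26 CPM and its 3 Dox libraries 3.29, 4.27 and 3.28 CPM, without overlap. It fell by 1.33 on the log2 scale (SE 0.13, adjusted p = 4.33e-06), the largest fall after TCEAL1 among named genes that reached 5 CPM in Ctrl. COL6A3, the large chain of the beaded-filament collagen VI, went from 29.6, 25.7 and 25.3 CPM to 11.8, 12.2 and 10.1 CPM (-1.26 ± 0.10, adjusted p = 1.89e-07). THBS1, thrombospondin, a secreted matrix glycoprotein that can activate latent TGF-beta, was far more abundant, at 1061, 918 and 956 CPM in Ctrl and 471, 514 and 471 CPM with Dox (-1.06 ± 0.07, adjusted p = 2.30e-08). For each of these genes every Dox library lay under every Ctrl library, which the rule that picked them required.

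LSM6, a subunit of the Sm-like ring that binds U6 small nuclear RNA and decaying messages, fell from 36.4, 41.2 and 39.1 CPM to 17.5, 18.3 and 15.9 CPM (-1.20 ± 0.08, adjusted p = 5.96e-08). TGFBI, a TGF-beta-induced adhesion protein of the matrix, went from 164.5, 176 and 182 CPM to 88.2, 94.1 and 84.3 CPM (-1.02 ± 0.07, adjusted p = 2.30e-08). PADI1, a peptidylarginine deiminase, had 5.14 ± 0.373 CPM in Ctrl and 2.37 ± 0.463 CPM with Dox (-1.03 ± 0.15, adjusted p = 5.40e-04). Its few reads make the added 0.5 CPM weigh more, so the fold is understated.

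DIRAS3, an imprinted small GTPase of the Ras family that restrains growth, went from 15.4, 22.2 and 19.2 CPM to 9.86, 9.40 and 8.10 CPM (-1.05 ± 0.13, adjusted p = 5.70e-05). Its Dox libraries lay close together below a wider Ctrl group. Promoters were looked up in RefSeq (GRCh38.p14, 250 bases before to 50 after the start) for the 15 largest falls taken by the 5 CPM rule, TCEAL1 included. Of the 13 with an entry, 2 held the TATA box core TATAAA on either strand, DIRAS3 and COL7A1. In DIRAS3 it lies on the gene's own strand at the distance from the start where a TATA box is usually found. That promoter is shown with the motif in capitals (chr1:68050578-68050877, minus strand, read along the gene).
DIRAS3: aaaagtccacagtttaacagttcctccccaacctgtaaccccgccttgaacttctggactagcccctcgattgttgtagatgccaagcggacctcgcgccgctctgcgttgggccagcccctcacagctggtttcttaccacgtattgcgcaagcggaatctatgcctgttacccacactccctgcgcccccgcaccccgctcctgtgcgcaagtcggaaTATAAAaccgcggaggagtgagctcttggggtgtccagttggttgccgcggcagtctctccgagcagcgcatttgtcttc

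TATAAA stood on either strand in 6.1% of the 11178 promoters of all genes tested, in 6.01% of those of the genes that rose and in 9.29% of those of the genes that fell. Among genes that fell both here and in the OHT background it was in 19 of 129 promoters (14.7%). The AP-1 site TGACTCA was in 3.38% of all promoters and 5.31% of those of the genes that fell. The E-box CACGTG bound by MYC and MAX was in 9.84% of all and 11.3% of those that fell, and the GC box GGGCGG in 67.7% and 69.2%. For genes that fell in both backgrounds the AP-1 site had 5.43%, the E-box 9.3% and the GC box 59.7%. The SMAD-type site CAGACA was in 12.6% of all, 13.9% of those that fell and 14.7% of those that fell in both. For the TEAD site ACATTCC these shares were 2.19%, 3.1% and 3.88%. These shares describe the letters in the window and were not tested.

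The other falls among the 15 largest included further matrix, adhesion and signalling genes. PMEPA1, a membrane inhibitor of SMAD signalling that TGF-beta induces, went from 47.5, 39.9 and 49.3 CPM to 23.5, 24.4 and 24.9 CPM (-0.94 ± 0.08, adjusted p = 8.76e-07). SORBS2, a scaffold of stress fibres and cell junctions, fell from 29.3, 28.6 and 29.01 CPM to 15.2, 16.8 and 16.1 CPM (-0.89 ± 0.08). RGS4, which shortens G protein signals, was at 152, 187 and 164.5 CPM and then at 103, 105 and 81.5 CPM (-0.85 ± 0.09). All 3 had Dox libraries below each Ctrl library, again by the rule that picked them. S100A2, a calcium-binding protein, fell by 0.86, CXCL1, a neutrophil-attracting chemokine, by 0.84 and COL7A1, the anchoring-fibril collagen, by 0.81 (adjusted p between 1.32e-05 and 0.00136). DACH2, a transcription cofactor, stood at 5.98, 8.24 and 8.16 CPM in Ctrl and 3.79, 2.97 and 5.52 CPM with Dox (-0.86 ± 0.17, adjusted p = 0.00813). Its groups lay close, and the call was lost without Ctrl replicate 2 (-0.77, adjusted p = 0.0692) or Ctrl replicate 3 (-0.80, adjusted p = 0.0918). EEF1A1P29, a processed copy of the translation elongation factor gene EEF1A1, had nearly the same values as DACH2 in each library. They were 5.84, 7.82 and 7.59 CPM in Ctrl and 3.61, 2.81 and 5.16 CPM with Dox. Whether the same reads were counted for both was not tested, so the fall cannot be credited to DACH2 itself.

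Among protein-coding genes that reached 5 CPM the largest rises were those of SLC41A2, UNC5C, TRIM55 and C21orf91, each by under 1 on the log2 scale. SLC41A2, a magnesium transporter, had 13.9, 13.7 and 13.6 CPM in Ctrl and 29.2, 26.7 and 27.3 CPM with Dox (0.93 ± 0.08, adjusted p = 1.54e-06). UNC5C, a netrin receptor of repulsive axon guidance, went from 23.9, 17.4 and 17.3 CPM to 36.5, 38.7 and 40.4 CPM (0.93 ± 0.10, adjusted p = 1.57e-05). TRIM55, a ubiquitin ligase best known from the sarcomere, rose from 102, 133 and 107 CPM to 225, 207 and 237 CPM (0.92 ± 0.09, adjusted p = 4.33e-06). In these genes the lowest Dox library lay well above the highest Ctrl library. C21orf91 rose by 0.81 ± 0.09, from 18.3 ± 2.15 to 33.6 ± 1.06 CPM.

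The remaining 10 of the 15 largest rises, taken by the same 5 CPM rule with MIR30A included, lay between 0.54 and 0.67 on the log2 scale. SAMD9, an antiviral and growth-restraining protein, rose by 0.61 ± 0.10, GBP3, an interferon-inducible GTPase, by 0.59 ± 0.10, and ZKSCAN8, a zinc-finger protein, by 0.57 ± 0.09. Their adjusted p-values were 0.00121, 0.00321 and 9.24e-04. The other 7 passed with all 6 libraries and lost the call when 1 library was left out. GCH1, the first enzyme of tetrahydrobiopterin synthesis (0.63 ± 0.12, 0.56 and adjusted p = 0.0692 without Ctrl replicate 3), was one of them. CREB5, a cyclic-AMP response element binding protein (0.58 ± 0.10), had 0.50 and adjusted p = 0.0502 without the same library, and ZSCAN30 (0.54 ± 0.10) had 0.47 and adjusted p = 0.0664. The kinase LRRK2 (0.56 ± 0.11) was not called without Ctrl replicate 3 (0.52) or Dox replicate 2 (0.52). LNCOG, a long noncoding RNA (0.67 ± 0.17), was lost without Ctrl replicate 3 (0.66), Dox replicate 2 (0.66) or Dox replicate 3 (0.59). The DNA repair gene BRCA2 (0.57 ± 0.13) was lost in 4 such fits, without Ctrl replicate 2 (0.52), Ctrl replicate 3 (0.45), Dox replicate 1 (0.50) or Dox replicate 2 (0.59). The kinase RPS6KA6 (0.59 ± 0.15) was kept only without Ctrl replicate 1, with 0.50 without Ctrl replicate 2, 0.51 without Ctrl replicate 3, 0.57 without Dox replicate 1, 0.65 without Dox replicate 2 and 0.55 without Dox replicate 3.

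**Figure D2:**
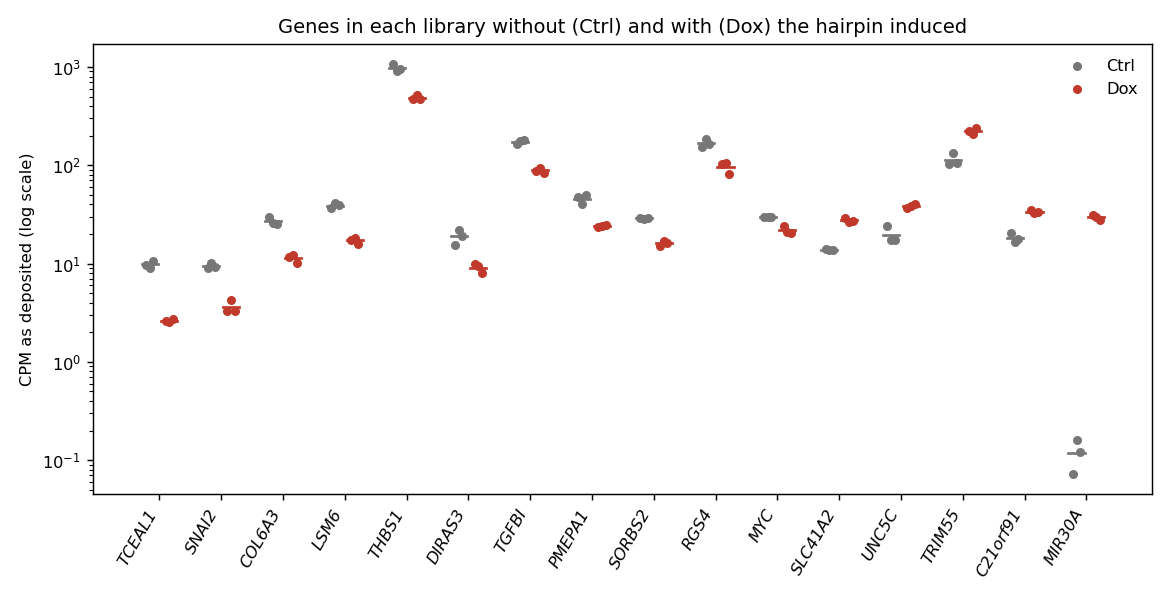
Level of 16 named genes in each of the 3 Ctrl (grey) and 3 Dox (red) libraries, in CPM as deposited on a log axis, with the group mean as a bar. TCEAL1 falls from 9.11 to 10.7 CPM to 2.54 to 2.74 CPM, and in every gene shown all Dox libraries lie on one side of all Ctrl libraries.

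Noncoding and pseudogene changes were taken apart by rule. Besides LINC00472 and ENSG00000269966 the 5 largest at 5 CPM or more included ENSG00000257522, a transcript of unknown role that rose from 2.65 ± 0.176 to 12.9 ± 1.01 CPM (2.04 ± 0.12). EEF1A1P14, a processed copy of the translation elongation factor gene EEF1A1, and the noncoding ENSG00000227240 that overlaps it fell by 1.18 each. EEF1A1P14 had 5.96, 13.6 and 6.88 CPM in Ctrl and 2.57, 3.59 and 4.64 CPM with Dox, so Ctrl replicate 2 stood above the others. Other copies, EEF1A1P29 (-0.87 ± 0.17) and EEF1A1P4 (-0.81 ± 0.20), also fell, while EEF1A1 itself changed by -0.09 ± 0.09 (adjusted p = 0.567). Reads of near-identical copies can be split between them, so these values are uncertain. Across all calls, processed pseudogenes made up 45 of the 721 falls and 0 of the 493 rises, beside 757 of the 18107 genes tested. With the trend along gene span and GC content removed, as described below, they were 16 of 478 falls and 1 of 209 rises.

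TGF-beta signalling controls matrix production, adhesion and the mesenchymal state: a ligand joins type I and type II receptors, which phosphorylate SMAD proteins that then act on target genes. Response genes of the pathway fell. Of 19 tested, 9 fell and 0 rose (3.98% and 2.72% over all genes). Their median was -0.27 against 0.004 for all genes, and between 6 and 11 fell when single libraries were left out. IGFBP3, a secreted binder of insulin-like growth factors, went with THBS1, TGFBI and PMEPA1, from 109, 118 and 116 CPM to 88.5, 86.8 and 79.8 CPM (-0.48 ± 0.07, adjusted p = 4.27e-04). Other well-known members did not pass the test: CCN2 had -0.20 ± 0.06 (adjusted p = 0.0651) and ID1 0.03 ± 0.08 (adjusted p = 0.851). Both were chosen after their values were seen. The list overlaps with genes already known from these data and is no independent evidence of its direction.

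Among 19 ligands, binding proteins and receptors 1 rose and 2 fell (2.72% and 3.98% over all genes), with a median of 0.02. TGFB2, a ligand, stood at 144, 102 and 113.5 CPM in Ctrl and 95.9, 85.4 and 95.6 CPM with Dox (-0.41 ± 0.09, adjusted p = 0.0145, and -0.27 without Ctrl replicate 1), and INHBA, a chain of activin, fell by 0.45 (SE 0.11, adjusted p = 0.0242). TGFBR2, the type II receptor, rose by 0.30 ± 0.08 (adjusted p = 0.0279). These calls were fragile. Without Ctrl replicate 3 or Dox replicate 2 no ligand or receptor fell or rose, and without Ctrl replicate 1 3 fell and 4 rose. Of 14 SMADs and their inhibitors 1 fell, PMEPA1, and 0 rose.

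Collagen chains and other matrix genes changed in both directions, more often down. Of 21 collagen chains tested, 8 fell and 2 rose (3.98% and 2.72% over all genes), with a median of -0.16. COL1A1, the main chain of fibrillar collagen I, went from 969, 863 and 941 CPM to 543.5, 545 and 602 CPM (-0.76 ± 0.07, adjusted p = 1.73e-06). COL5A1, which nucleates collagen fibrils, went from 262, 218.5 and 230 CPM to 148, 157 and 154 CPM (-0.67 ± 0.06, adjusted p = 4.60e-06). COL1A1 and COL5A1 joined COL6A3 and COL7A1 as the members with the smallest p, and in all 4 every Dox library lay below every Ctrl library. COL3A1, another abundant fibrillar chain, had 369 ± 40.7 and 350.5 ± 9.77 CPM (-0.12 ± 0.07, adjusted p = 0.308) and was chosen after its value was seen. Without Ctrl replicate 3 or Dox replicate 2 the number that fell was 5, and the number that rose was 0 in 4 of the 6 fits that left out a library.

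Of 27 matrix glycoproteins and proteoglycans 6 fell and 1 rose (3.98% and 2.72% over all genes), with a median of 0.02. SPARC, a collagen-binding glycoprotein, was the most abundant, at 2059, 1855 and 2082 CPM in Ctrl and 1506, 1452 and 1399 CPM with Dox (-0.51 ± 0.08, adjusted p = 8.38e-04). FN1, fibronectin, fell by 0.34 (SE 0.08, adjusted p = 0.019), LAMB3, a laminin chain, by 0.34 and NID2, a basement membrane linker, by 0.32. Of 24 matrix processing enzymes and inhibitors 5 fell and 1 rose. PLAU, the urokinase that activates plasmin, led them, from 613, 578 and 620 CPM to 454, 444 and 469 CPM (-0.46 ± 0.06, adjusted p = 3.21e-04). SPARC and PLAU kept their calls under every alternative tried, whereas FN1, LAMB3 and NID2 lost theirs without Ctrl replicate 3. Leaving out single libraries gave 1 (Ctrl replicate 3 or Dox replicate 3) to 7 falls for the glycoproteins and 1 (Ctrl replicate 3 or Dox replicate 2) to 4 for the processing enzymes.

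Counts for mesenchymal transcription factors, contractile genes, integrins and YAP and TEAD targets are given beside 2.72% of all genes that rose and 3.98% that fell. Among 18 mesenchymal transcription factors SNAI2 and SNAI1 fell and 0 rose. SNAI1 changed by -0.45 ± 0.13 (adjusted p = 0.0444) and was called in just 1 of the 6 fits without a library. The factors that define this cell state beside them did not pass: TWIST1 had -0.18 ± 0.06 (adjusted p = 0.0896), ZEB1 0.17 ± 0.07 (adjusted p = 0.148) and PRRX1 0.06 ± 0.06 (adjusted p = 0.625), values read after the calls were known. Of 24 contractile and actin genes 2 fell and 1 rose, and 4 rose without Ctrl replicate 1 and 0 without any other library. TPM1, a tropomyosin of stress fibres, fell from 601, 633 and 625 CPM to 494, 477 and 462 CPM (-0.43 ± 0.07, adjusted p = 0.00105) and kept its call throughout. Of 15 integrin subunits 1 fell, ITGA3 (-0.24 ± 0.06), which lost its call without Ctrl replicate 3 or any 1 Dox library. Of 21 YAP and TEAD targets 3 rose (AMOTL1, F3 and DOCK5) and 1 fell (TGFB2), with a median of 0.08, and the rises numbered 7 without Ctrl replicate 1 and 0 without Ctrl replicate 2, Ctrl replicate 3, Dox replicate 1 or Dox replicate 2.

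Among the 17 mesenchymal neuroblastoma markers tested 6 fell and 0 rose (3.98% and 2.72% over all genes), with a median of -0.10. Only 1 fell without Ctrl replicate 3, Dox replicate 2 or Dox replicate 3. The simple-epithelial keratins moved in the same direction. KRT18 went from 768, 775 and 826 CPM to 529, 519 and 532 CPM (-0.63 ± 0.06, adjusted p = 1.03e-05), and KRT8, its filament partner, from 574, 545 and 621.5 CPM to 410, 399 and 408 CPM (-0.57 ± 0.06, adjusted p = 4.11e-05). Both keratins kept their calls under every alternative. No adrenergic or Schwann cell marker was called.

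The TCEAL and BEX family had 7 of 14 members tested, and 3 fell: TCEAL1, TCEAL9 and BEX3. TCEAL9 stood at 53.2, 58.9 and 53.4 CPM in Ctrl and at 40.9, 40.3 and 39.2 CPM with Dox (-0.50 ± 0.07, adjusted p = 4.66e-04). BEX3 changed by -0.32 ± 0.08 (adjusted p = 0.0308) and was lost without Ctrl replicate 2, Ctrl replicate 3, Dox replicate 2 or Dox replicate 3. TCEAL3 (-0.07 ± 0.08), TCEAL4 (-0.16 ± 0.07) and TCEAL8 (0.02 ± 0.08) did not pass, nor did BEX4, at 0.966 ± 0.262 and 1.77 ± 0.566 CPM (0.58 ± 0.21, adjusted p = 0.0907). Of 13 genes tested in a list of deubiquitinases, USP7 and USP11 among them, and their partners 1 passed, near the 6.7% of all genes called. That was DAXX, a histone chaperone stabilised by USP7, with 26.7, 29.5 and 29.7 CPM in Ctrl and 19.8, 22.9 and 19.3 CPM with Dox (-0.52 ± 0.09, adjusted p = 0.00214).

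Called changes among general transcription genes were small in size. Their counts stand beside 2.72% of all genes that rose and 3.98% that fell. Of 39 pausing, elongation and termination factors 3 rose and 0 fell, with a median of 0.03. The rises were in the P-TEFb cyclin CCNT2 (0.32 ± 0.08) and in AFF1 (0.41 ± 0.08, adjusted p = 0.00635) and AFF4 (0.38 ± 0.09), scaffolds of the super elongation complex that carries P-TEFb. All 3 were lost without Ctrl replicate 3 or Dox replicate 2, and 7 members rose without Ctrl replicate 1. Of 12 subunits of RNA polymerase II 3 fell, the small subunits POLR2F, POLR2G and POLR2I (-0.27 to -0.33), and 0 fell without Ctrl replicate 2, Ctrl replicate 3, Dox replicate 2 or Dox replicate 3. Of 8 TFIIS and elongin genes 1 fell, ELOB (-0.33 ± 0.08), lost in the same 4 fits.

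Of 40 cytosolic ribosomal protein genes 13 fell and 0 rose, with a median of -0.21. RPS3 was the member with the smallest p, at 1090, 1348 and 1146 CPM in Ctrl and 957, 938 and 976 CPM with Dox (-0.36 ± 0.08, adjusted p = 0.0172). The count was 30 without Ctrl replicate 1, 1 without Ctrl replicate 2 and 0 without Ctrl replicate 3, Dox replicate 2 or Dox replicate 3. In the OHT background 0 fell and the median was 0.02. Of 31 oxidative phosphorylation genes 5 fell (16 without Ctrl replicate 1, 0 or 1 without Ctrl replicate 2, Ctrl replicate 3, Dox replicate 2 or Dox replicate 3), and of 29 nucleolar genes 5 fell (0 or 1 without those same 4). Of 26 DNA replication genes and 24 mitotic genes 1 fell in each list, near the 3.98% of all genes that fell, MCM5 (-0.21 ± 0.06) and AURKB (-0.22 ± 0.07), both lost without any library but Ctrl replicate 1. In the MYC and MAX network MYC itself was the 1 member of 12 that passed.

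Counts for stress and signalling lists stand against the 6.7% of all genes called. Of 19 interferon-stimulated genes and 18 endoplasmic reticulum stress genes 0 rose and 0 fell, but without Ctrl replicate 1 2 and 1 rose and 1 and 4 fell. Of 22 p53 targets 1 fell, PLK2, a polo-like kinase, from 362, 292 and 329 CPM to 223, 213 and 219 CPM (-0.63 ± 0.07, adjusted p = 2.24e-05). CDKN1A and MDM2, the best-known members, had -0.01 ± 0.07 and 0.05 ± 0.06 and were chosen after their values were seen. Of 22 immediate early genes 4 fell and 1 rose. KLF6, a zinc-finger factor, led them, from 133, 127 and 109.5 CPM to 84.0, 82.4 and 82.9 CPM (-0.61 ± 0.07, adjusted p = 4.11e-05), and alone kept its call in every fit. CXCL1 was the 1 of 14 inflammatory genes that passed. Of 23 lysosome and autophagy genes 3 fell, led by the protease gene CTSB (-0.42 ± 0.06, adjusted p = 9.22e-04), and of 25 hypoxia and glycolysis genes 3 fell, led by PFKFB4 (-0.67 ± 0.11, adjusted p = 0.00219), a regulator of glycolytic flux. CTSB and PFKFB4 kept their calls in every fit, and without Ctrl replicate 3 they were the 1 fall left in each list. Of 23 cholesterol genes 4 fell, among them MVD (-0.40 ± 0.09, adjusted p = 0.0146), with a median of -0.18. That count was 8 without Ctrl replicate 2, 2 without Dox replicate 1 or Dox replicate 3 and 0 without Ctrl replicate 3 or Dox replicate 2, and in the OHT background 15 fell with a median of -0.34.

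**Figure D3:**
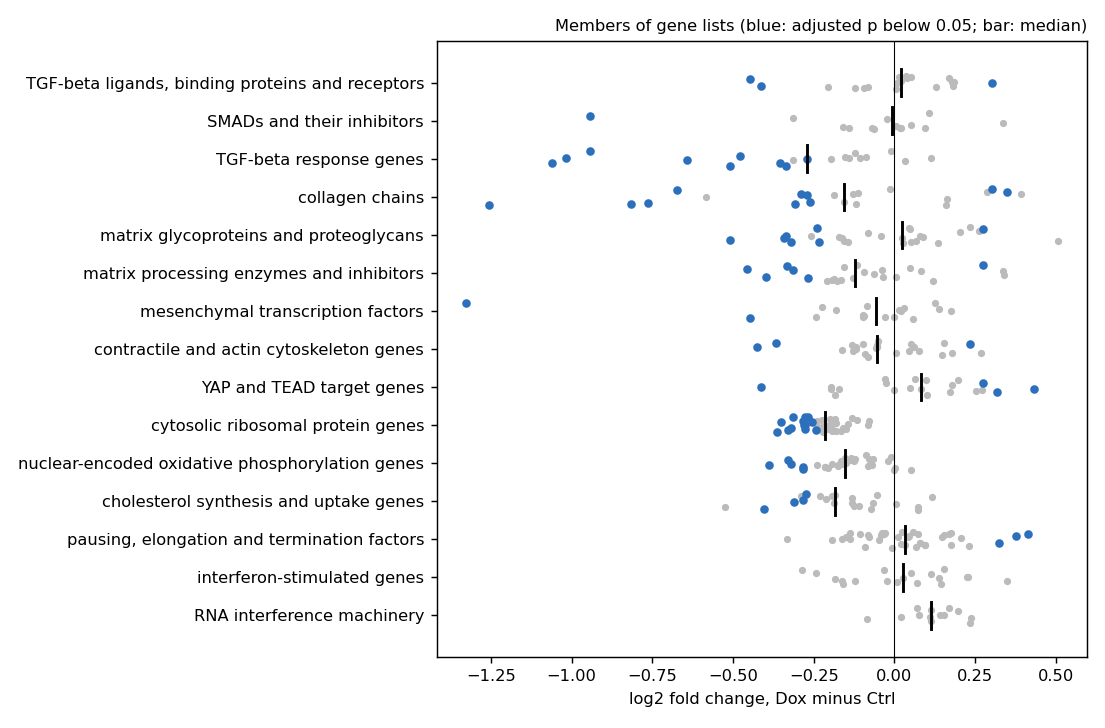
Log2 fold change with Dox (horizontal axis) of each tested member of 15 gene lists (rows). Blue points have an adjusted p below 0.05, grey points do not, and the black bar is the list's median, which is lowest for the TGF-beta response genes (-0.27) and the cytosolic ribosomal protein genes (-0.21).

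The same contrast in cells with MYCN-ER active, OHT_Dox against OHT, shares no library with Dox against Ctrl and was used to see which of these changes recurred. There 103 genes rose (0.57% of 18070 tested) and 399 fell (2.21%), 2.78% in both directions together. All OHT_Dox libraries lay below all OHT libraries in 9.89% of genes and above them in 8.68%. Of the 721 genes that fell here, 718 were tested there, 530 (73.8%) had the same sign, 171 (23.8%) were called lower and 0 were called higher. These 171 made up 42.9% of the falls in the OHT background. Some pairs of entries among them had nearly the same change here, such as PLAU and C10orf55 (-0.456 and -0.457) or SOX9 and SOX9-AS1 (-0.36 and -0.353). Whether such pairs share reads was not tested, so the counts of genes may hold some reads more than once. Of the 493 genes that rose, 353 (71.6%) had the same sign there, 26 (5.27%) were called higher and 0 lower. The 26 made up 25.2% of the rises there. The share of all genes tested with the same sign was not counted, so the same-sign shares here and below have no background beside them. The number shared fell to 89 lower and 13 higher without Ctrl replicate 3, to 101 and 13 without Dox replicate 2, and the number higher to 15 without Dox replicate 3.

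Recurrence went with size. Of the falls over 1.5-fold, 88 of 102 had the same sign and 58 were called, against 442 and 113 of 616 smaller falls. All 28 rises over 1.5-fold had the same sign and 13 were called, against 325 and 13 of 465 smaller rises. Of the 15 largest named falls, 14 were called in the OHT background, and DACH2 (0.24) was the exception. EEF1A1P29, whose values lay close to those of DACH2, was not called there either (0.28). TCEAL1 changed there by -1.80, THBS1 by -1.19, COL6A3 and LSM6 by -1.15, SNAI2 by -1.11, RGS4 by -1.05 and TGFBI by -0.83. Of the 15 largest rises TRIM55 (0.94), SLC41A2 (0.74), UNC5C (0.57), C21orf91 (0.50) and GBP3 (0.46) were called there. SAMD9 (0.03), ZKSCAN8 (0.11) and the other rises were not, MIR30A aside. MIR30A passed the filter there through the OHT_Dox libraries alone, so its change is again given without a test. The counts of rises above include it.

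A test of the difference between the effects in these backgrounds, the interaction over all 12 libraries and 18674 genes, called 0 genes with limma at an adjusted p below 0.05. At an unadjusted p under 0.05 it gave 2731 genes (14.6%) with limma and 2710 with edgeR, which also called 0, and 2761 with DESeq2, which called 1, DAXX. DAXX, lower in every Dox library here, had 21.1, 22.5 and 22.6 CPM with OHT alone. With both compounds it had 27.1, 22.8 and 29.5 CPM, an interaction of 0.75 and an adjusted p of 0.238 in limma. Without Ctrl replicate 1 the interaction called 852 genes, and without OHT_Dox replicate 2 it called 1. A gene called in one background and not in the other is therefore not shown to differ between them.

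**Figure D4:**
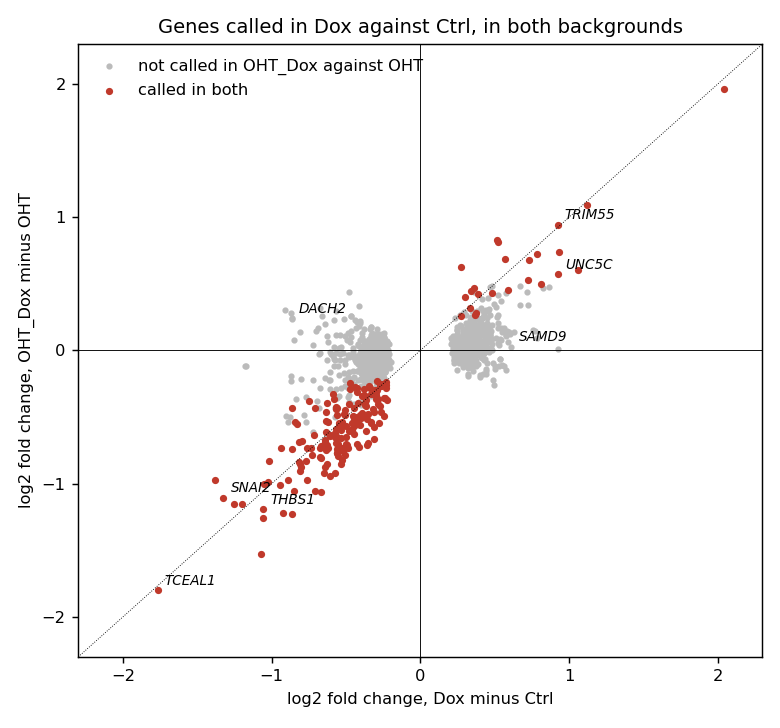
Log2 fold change of the genes called in Dox against Ctrl (horizontal axis) and in OHT_Dox against OHT (vertical axis), with genes called in both in red, others in grey, and the line of equal change dotted. Large falls such as TCEAL1 (-1.77 and -1.80) lie near the line, most small changes scatter about 0 on the vertical axis, and MIR30A and LINC00472 lie beyond the axes.

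The genes that rose and fell differed in length and base composition. Genes that rose had a median span from first to last annotated base of 91.7 kb and a transcript GC content of 43.6%. Genes that fell had 9.63 kb and 56.6%, and all genes tested had 26.0 kb and 49.7%. Of the 3328 genes spanning under 5 kb, 7 rose and 236 fell, whereas of the 3170 genes over 100 kb, 229 rose and 67 fell. The median change was -0.08 in the first class and 0.09 in the second. Across 13073 genes at 5 CPM or more, the change had a Spearman correlation of 0.402 with span and -0.342 with GC content, a description over genes that share the same 6 libraries. In OHT_Dox against OHT the same correlations were -0.153 and 0.215, of the opposite sign.

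Libraries of 1 group differed in the same property. The deviations of Ctrl replicate 1 from its group mean had a Spearman correlation of 0.418 with span, those of Ctrl replicate 2 -0.176 and those of Ctrl replicate 3 -0.305, while the Dox libraries lay between -0.124 and 0.09. In genes under 5 kb Ctrl replicate 1 stood at -0.08 from the Ctrl mean, the other Ctrl libraries at 0.04 and 0.03, and the Dox libraries at -0.11 to -0.15. In an alternative chosen after the data were seen, the fitted dependence on span and GC content was removed from each library. That step also removes any change with Dox that varies with span or GC content. It therefore does not measure how much of the calls came from a trend of single libraries. Then 209 genes rose (1.15%) and 478 fell (2.64%), with median spans of 46.3 and 33.6 kb. The 15 largest falls, and the 15 largest rises except RPS6KA6 (0.48, adjusted p = 0.0623) kept their calls, leaving aside MIR30A, which is given without a test. Among the gene lists, the TGF-beta response genes had 8 falls and the collagens 9, while the cytosolic ribosomal proteins had 4 and the nucleolar genes 2.

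**Figure D5:**
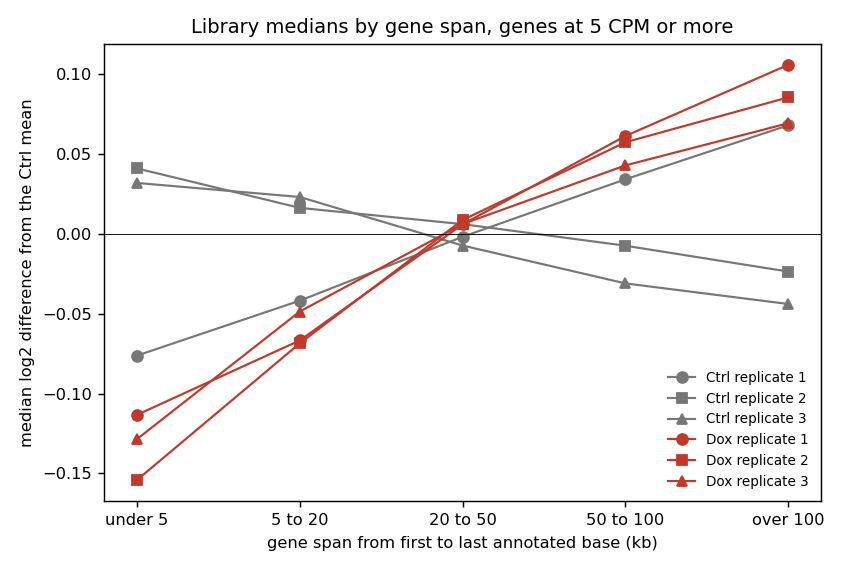
Median log2 difference of each library from the Ctrl mean (vertical axis) in 5 classes of gene span in kb (horizontal axis), for genes at 5 CPM or more. The 3 Dox libraries (red) run from -0.11 to -0.15 in genes under 5 kb to 0.07 to 0.11 in genes over 100 kb, and Ctrl replicate 1 (grey circles) runs the same way from -0.08 to 0.07, unlike the other Ctrl libraries.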

How the data were processed

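Poly(A) RNA of SHEP cells was sequenced as strand-specific libraries, per the labels' protocols. The authors deposited CPM: the reads of each gene scaled to 1e+06 assigned reads in its library. Tools named in the submitters' processing notes are featureCounts, STAR, Bowtie2, Bowtie, DRAGEN and FastQC, with mm10 and hg19 as builds. The notes as used here give no roles. The annotation and the strand setting are not given in the sources used here. Every CPM value was a whole multiple of 1 read (100% of values within 0.01 reads), so whole reads were recovered.

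Genes at 0.5 CPM or more in at least 3 of the 6 libraries were tested. Libraries were rescaled by the trimmed mean of M values (factors 0.966 to 1.03), and limma 3.58.1 (R 4.3.3) was run on log2(CPM + 0.5) with its variance trend on the mean. P-values are two-sided and Benjamini-Hochberg adjusted over all genes tested. The same fit served OHT_Dox against OHT, and 1 mean per group over 12 libraries the interaction. The count tests of edgeR 4.0.16 and DESeq2 1.42.0 on the recovered reads were alternatives. The code of the fit was run on simulated counts drawn with a fixed spread and no trend with span or GC content. These libraries do show such trends, so that run does not bear on their part in the calls. Gene span, GC content and overlaps came from GENCODE release 29 (28572 identifiers matched). Its build differs from that of the notes, so coordinates are given only for RefSeq sequences. Replicates of a group differed by more than counting noise (chi-square per degree of freedom of 5.84 to 21.8).

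Named genes were TCEAL1, USP11, USP7, TCEA1, MYCN and MYC. To these came the 15 largest rises and 15 largest falls among called genes that reached 5 CPM in the higher group without overlap between groups, leaving out noncoding clone names and pseudogenes, of which the 5 largest changes were taken apart. Up to 4 called members with the smallest p were named in each of 34 gene lists and 6 marker lists. Members and lists were chosen with earlier results of these data known. Some list members are not reported here.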

Additional observations from a re-analysis of the deposited data

How the results depend on the processing

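The count of 1214 calls was 1195 with edgeR and 1290 with all 12 libraries in 1 fit. It moved to 419 (136 higher, 283 lower) without the filter on low values, 1905 (789 and 1116) with DESeq2, 687 (209 and 478) after removal of the span and GC trend, 211 (49 and 162) at an adjusted p below 0.01 and 133 (28 and 105) with a 1.5-fold minimum. Without rescaling, 940 genes were higher and 420 lower. Leaving out 1 library gave 181 to 3219 calls, 37 to 1781 higher and 144 to 1438 lower. The 502 calls of OHT_Dox against OHT became 768 after trend removal and 290 to 436 without a library. The interaction count of 0 became 1 with DESeq2 and 0 to 852 without a library. The cause of these moves was not tested.

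The labels do not say that replicate numbers mark a shared culture, so the libraries were not treated as paired. Same-numbered libraries had deviations correlated at -0.062, 0.06 and 0.179, and Ctrl replicate 1 correlated best with Dox replicate 2 (0.104). The deviations did share a pattern with GC content by number: their Spearman correlation with it was positive for replicate 3 in all 4 groups (0.158 to 0.636) and negative for the others (-0.018 to -0.624). With a replicate block there were 1257 calls (589 higher, 668 lower), 702 in the OHT background and 0 in the interaction. No named gene that passed the test changed sign under the alternatives run. The balance of rises and falls did turn, to more rises, with the CPM as deposited and without Ctrl replicate 1 (1781 higher, 1438 lower). USP7 and TCEA1, which did not pass, changed sign without Ctrl replicate 3 (-0.02) and without Ctrl replicate 2 (0.02). The 14 largest falls besides TCEAL1 kept their call in 236 of 238 values and the 15 rises in 231 of 252. These rises include MIR30A, whose change is given without a test. Of 71 called list members, 14 kept their call in all 17 alternatives and 57 lost it at least once, all 57 without Ctrl replicate 3. Each fit without a Dox library left MIR30A below the filter and gave it no value. Depth limits the least abundant genes most: TCEAL1 rested on 514 to 617 reads per Ctrl library and 137 to 145 per Dox library.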

Other observations

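A pair of Notch pathway genes outside the lists, chosen after their values were seen, fell with Dox. No list of Notch pathway genes was counted, so the pair does not describe the pathway. JAG1, a ligand of Notch receptors, stood at 142, 128 and 131 CPM in Ctrl and at 75.7, 90.2 and 71.6 CPM with Dox (-0.81 ± 0.08, adjusted p = 3.47e-06, limma). HES1, a repressor that Notch signalling induces, went from 35.9, 44.5 and 40.9 CPM to 22.2, 25.4 and 23.8 CPM (-0.80 ± 0.09, adjusted p = 2.34e-05). In both genes every Dox library lay below every Ctrl library, and both kept their calls under the 17 alternatives. In the OHT background JAG1 changed by -0.85 and HES1 by -0.68, both called.

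Axon guidance genes, important in the neural crest from which neuroblastoma arises, moved in both directions. Of 31 tested, 2 rose and 3 fell (2.72% and 3.98% over all genes), with a median of -0.06. The Slit receptor ROBO1 rose by 0.28 ± 0.08 beside UNC5C, while the ligand SLIT3 (-0.30 ± 0.07) and the receptor EPHB2 (-0.45 ± 0.10, adjusted p = 0.0166) fell. Of these, the call of UNC5C alone did not depend on a single library: SLIT3, EPHB2 and ROBO1 lost theirs without Ctrl replicate 3 or Dox replicate 2.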
